A study of Homo sapiens with 4 samples.

Results

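TNFSF10 encodes TRAIL (tumour necrosis factor related apoptosis-inducing ligand). It was described here with its receptors and the first genes of their signalling in HK-2 cells, an immortalised human renal proximal tubule line. The 10 genes, of 34080 with at least 1 matched transcript, are the ligand TNFSF10, the death receptors TNFRSF10A, TNFRSF10B and FAS, the decoy receptors TNFRSF10C, TNFRSF10D and TNFRSF11B, the adaptor FADD, the initiator caspase CASP8 and its regulator CFLAR. They were chosen by name with their values in this same comparison already known, so their differences between the groups are given as a description, without p-values, and how many passed the limits is stated only beside the share of all genes that did. All cultures carried a Tet-On 3G cassette in which doxycycline induces HA-tagged PRCC-TFE3, the fusion of PRCC with the transcription factor TFE3 that is found in a form of renal cell carcinoma. Doxy(-) cells had no doxycycline, Doxy(+) cells had 0.2 microg/ml for 24 h, and each group had 2 libraries, numbered 1 and 2. No HK-2 line without the transgene was analysed here, so effects of doxycycline and of PRCC-TFE3 cannot be told apart.

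TRAIL is a membrane protein that can be shed, and it binds as a trimer. Its death receptors gather FADD through a death domain, and FADD gathers caspase-8, which cleaves itself and starts apoptosis. The decoy receptors bind the ligand without a working death domain, and CFLAR (c-FLIP) occupies the same complex as caspase-8 and limits or shapes its activity. TRAIL and its receptors are known in renal tubule cells, and FAS, the receptor of FAS ligand, uses the same adaptor and caspase.

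The single gene of the 10 with a large difference was TNFSF10, so its upstream sequence and its skipped exons are shown. RefSeq promoters on GRCh38.p14 matched 5 of the 10 genes, with 12 promoters in all, 4 of CFLAR, 3 of CASP8, 3 of FAS, 1 of TNFSF10 and 1 of FADD. TNFRSF10A, TNFRSF10B, TNFRSF10C, TNFRSF10D and TNFRSF11B had none among the promoters used, so no promoter of a TRAIL receptor was searched. The TNFSF10 stretch lies upstream of every annotated start of the gene, at chr3:172523476-172523680, and is read on the minus strand, 5′ to 3′. Its capitals mark a match to the interferon regulatory factor element (GAAA and GAAA with 2 bases between) and, closer to the gene, one to the NF-kB letters (GGG and CC with 5 bases between), both searched on both strands.

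TNFSF10 upstream: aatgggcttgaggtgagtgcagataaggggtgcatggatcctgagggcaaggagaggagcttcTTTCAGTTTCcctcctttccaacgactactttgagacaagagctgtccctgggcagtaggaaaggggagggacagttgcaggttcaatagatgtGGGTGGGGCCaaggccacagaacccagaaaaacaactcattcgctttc

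The interferon element was in 3.57% of 35116 RefSeq promoters and the NF-kB letters in 58.7%. Each promoter ran from 250 bases before to 50 bases after the start and so was longer than the stretch printed. The interferon element was also in 1 CASP8 promoter. The NF-kB letters were also in promoters of CFLAR, CASP8 and FAS. The GC box (GGGCGG), AP-1 site (TGANTCA) and GAS element (TTCNNNGAA), N being any base, had 0 matches in the TNFSF10 promoter. They were in 44.95%, 7.71% and 7.66% of all promoters. CACGTG, the E-box bound by TFE3 and its relatives, was in 0 of the 12 promoters and in 7.26% of all. CATGTG, the M-box core, was in 1 of the 12, a CASP8 promoter, and in 11.1% of all. These are matches of letters and not sites shown to be bound. The other TNFSF10 sequence is the pair of exons of the full-length transcript TNFSF10-201 that TNFSF10-202 lacks, 148 coding bases between positions 172509217 and 172511659 of chromosome 3 (GENCODE release 44 on hg38, minus strand), with the first of both exons, 43 bases long, in capitals.

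TNFSF10-201 exons 3 and 4: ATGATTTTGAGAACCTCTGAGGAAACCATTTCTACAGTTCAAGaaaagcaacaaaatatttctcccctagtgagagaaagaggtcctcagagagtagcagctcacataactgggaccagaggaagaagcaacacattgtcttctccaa

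Since 148 is not a multiple of 3, the exon that follows is read in another frame in TNFSF10-202, whose predicted protein has 101 residues against 281 in TNFSF10-201.

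Gene totals were between 12654233 and 15012743 estimated counts per library. TFE3, with transgene reads counted wherever the authors' quantifier placed them, was at 66.9 and 69.0 CPM (counts scaled to library size) in Doxy(-) against 367.2 and 321.7 in Doxy(+), which fits the labels. PRCC was at 50.2 and 47.2 in Doxy(-) against 47.7 and 60.1 in Doxy(+). The 11 renal epithelial markers summed to 1237 and 1256 CPM in Doxy(-) against 1184 and 1200 in Doxy(+). PAX8 was between 564.5 and 604.8 CPM in the 4 libraries, and the brush border enzyme GGT1 was between 68.7 and 86.1 CPM and rose (edgeR adjusted p = 0.041). The keratins KRT8 and KRT18, whose exons overlap, fell with a log2 fold change of -0.24 each (edgeR adjusted p = 0.0038 and 0.014), and PAX2, AQP1, LRP2 and ANPEP had at most 3 counts in any library. The part of these markers in the results below was not tested. Summed immune markers were between 0.868 and 2.67 CPM, with 2 of 6 at 0, and endothelial markers between 0.545 and 1.05 CPM, with 2 of 4 at 0. Fibroblast markers summed to 21.7 and 25.8 CPM in Doxy(-) against 17.7 and 19.3 in Doxy(+), with COL1A1 leading and 1 of 4 at 0. In bulk RNA, fewer cells of a type and less RNA per cell cannot be told apart.

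**Figure D1:**
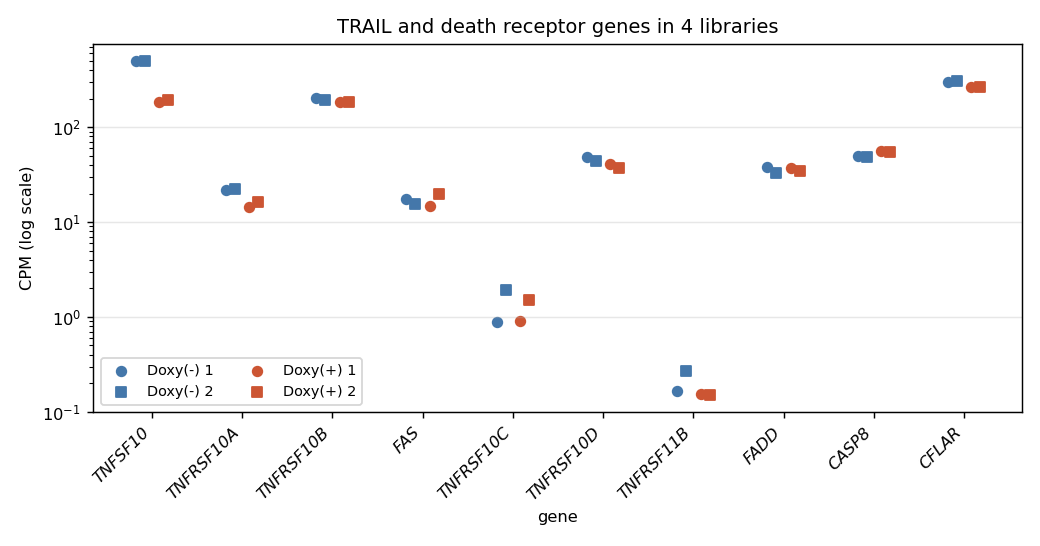
CPM on a log axis for each of the 10 genes, with 1 point per library (blue Doxy(-), red Doxy(+), circles library 1, squares library 2). TNFSF10 separates into 494.1 and 502.2 CPM against 186.4 and 192.8, while the points of most other genes lie close together.

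TNFSF10, the TRAIL ligand (chr3:172505508-172523475, minus strand), was at 494.1 and 502.2 CPM in Doxy(-) against 186.4 and 192.8 CPM in Doxy(+). The groups were far apart against the distance between libraries of a group, and both Doxy(+) libraries were lower. The log2 fold change was -1.39 ± 0.034 (SE, n = 2 per group), which is a level 61.9% lower or a 2.63-fold difference. The counts behind it were 6370 and 7381 in Doxy(-) against 2400 and 2589 in Doxy(+). Of 2132 tested genes averaging 100 CPM or more, only CXCL8, a neutrophil-attracting chemokine, had a lower log2 fold change, at -1.44. Over all tested genes at any level, 73 had a lower log2 fold change than TNFSF10.

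Of the 10 genes, 9 had enough counts for the fit across 13569 genes, and 1 of them, TNFSF10, was past both limits, an adjusted p of 0.05 and a 2-fold difference (log2 of 1), as 1.98% of all tested genes were (0.479% lower). At the adjusted p alone, TNFSF10, TNFRSF10A and CFLAR were lower and none was higher (TNFRSF10A lost this in 4 of the 15 alternatives and CFLAR in 5, both without Doxy(+) 1 and CFLAR also without Doxy(+) 2), beside 9.53% lower and 9.76% higher, or 19.3% in all, of the tested genes. The CPM ranges of the groups did not overlap in 6 of the 9 genes, 5 lower and 1 higher, beside 30.0% and 31.1% of tested genes. These counts describe the choice of genes, and nothing is read from them.

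Among the death receptors, TNFRSF10A (DR4; chr8:23190452-23225102, minus strand) was at 21.8 and 22.1 CPM in Doxy(-) against 14.4 and 16.4 in Doxy(+). The difference was -0.51 ± 0.10 (SE) on the log2 scale, a level 29.8% lower, and the groups did not overlap. TNFRSF10B (DR5; chr8:23020133-23069031, minus strand) was at 203.2 and 191.3 CPM in Doxy(-) against 186.4 and 184.5 in Doxy(+). Both Doxy(+) libraries were lower, but by no more between the means (-0.09 ± 0.042 on the log2 scale) than the Doxy(-) libraries lay apart, and exons of the gene overlap those of RHOBTB2 on the other strand. FAS (chr10:88953813-89029605, plus strand) was at 17.7 and 15.4 CPM in Doxy(-) against 14.6 and 19.6 in Doxy(+), so that the groups overlapped. The difference was 0.05 ± 0.16 on the log2 scale, its exons overlap ACTA2 on the other strand and STAMBPL1 on the same strand, and 15 of its 61 annotated transcripts are in the files.

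Of the decoy receptors, TNFRSF10D (DcR2; chr8:23135588-23164027, minus strand), which has a truncated death domain, was the abundant one. It was at 48.4 and 43.6 CPM in Doxy(-) against 40.7 and 37.5 CPM in Doxy(+), with a log2 fold change of -0.23 ± 0.077. TNFRSF10C (DcR1; chr8:23102921-23117445, plus strand), which is anchored by a lipid, was at 0.882 and 1.92 CPM in Doxy(-) against 0.908 and 1.51 in Doxy(+). The groups overlapped and the log2 fold change was -0.20 ± 0.50, and reads of these related receptor genes can be divided between them by the quantifier. TNFRSF11B (osteoprotegerin, a secreted decoy; chr8:118923557-118951885, minus strand) had 2.16 and 4 counts in Doxy(-) against 2 and 2 in Doxy(+), too few for a fold change.

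The adaptor FADD (chr11:70203296-70207390, plus strand) was at 38.1 and 33.1 CPM in Doxy(-) against 37.1 and 34.2 in Doxy(+), with overlapping groups and a log2 fold change of 0.00 ± 0.090. CASP8, the initiator caspase (chr2:201233443-201361836, plus strand), was the only one of the 9 whose Doxy(+) libraries were both above Doxy(-). It had 49.1 and 48.0 CPM in Doxy(-) against 55.8 and 54.3 in Doxy(+), a log2 fold change of 0.18 ± 0.055 or a level 13.4% higher. CFLAR, which lies beside it (chr2:201116154-201176687, plus strand), was at 296.1 and 306.8 CPM in Doxy(-) against 268.3 and 263.1 in Doxy(+). The log2 fold change was -0.18 ± 0.035, a level 11.9% lower, with no overlap between the groups, and the exons overlap the pseudogene IMPDH1P10 on the other strand.

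**Figure D2:**
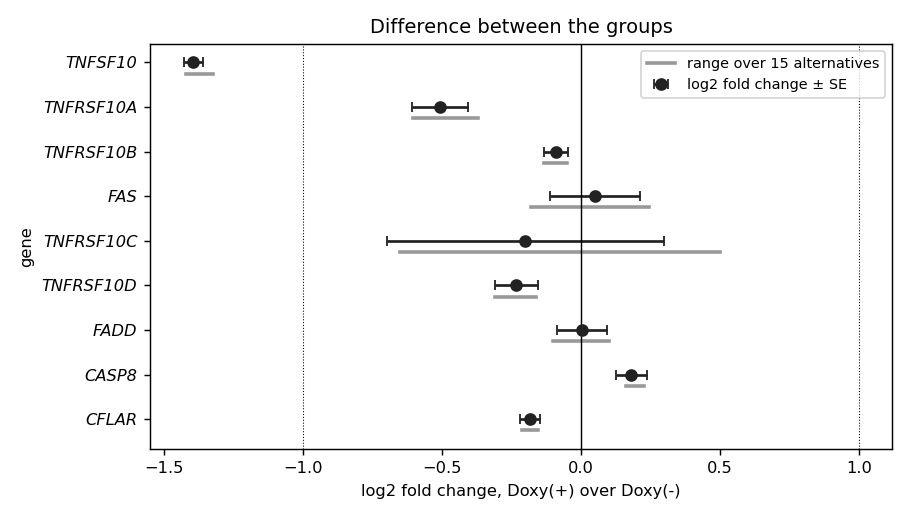
Log2 fold change of Doxy(+) over Doxy(-) with its standard error for the 9 genes fitted (black), and below each the lowest to highest value over 15 other processing settings (grey), with dotted lines at a log2 fold change of 1 in either direction. TNFSF10 stands at -1.39, beyond the dotted line, and the other 8 lie between -0.51 and 0.18.

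To compare levels between genes, TPM (abundance scaled for transcript length and depth) was summed per gene. In Doxy(-), TNFSF10 was the highest of the 10 at 409.6 ± 4.1 TPM (SD, n = 2), followed by CFLAR at 182.2 ± 2.3 and TNFRSF10B at 99.4 ± 1.5. CASP8 was at 34.9 ± 2.8 TPM, FADD at 29.2 ± 3.0 and TNFRSF10D at 19.1 ± 1.5, each without overlap with its neighbour in the order. FAS at 15.8 ± 2.3 and TNFRSF10A at 15.5 ± 1.2 overlapped, and TNFRSF10C at 1.23 ± 0.64 and TNFRSF11B at 0.358 ± 0.12 were last. In Doxy(+), CFLAR at 164.1 ± 13 and TNFSF10 at 163.1 ± 2.2 TPM overlapped, so that the ligand no longer stood alone at the top. The order below them was the same, TNFRSF10B at 94.1 ± 1.6, CASP8 at 40.8 ± 0.90, FADD at 30.1 ± 1.8, TNFRSF10D at 16.7 ± 0.99, FAS at 15.5 ± 4.2 and TNFRSF10A at 11.7 ± 0.046, with overlap between TNFRSF10D and FAS.

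Ratios of TPM within a library set the ligand beside its receptors. TNFSF10 over the sum of TNFRSF10A and TNFRSF10B was 3.53 and 3.59 in Doxy(-) against 1.51 and 1.57 in Doxy(+), more ligand than death receptor RNA in every library. The sum of both death receptors over the sum of the membrane decoys TNFRSF10C and TNFRSF10D was 5.49 and 5.82 in Doxy(-) against 5.86 and 6.01 in Doxy(+). TNFRSF10B over TNFRSF10A was 6.86 and 6.02 in Doxy(-) against 8.09 and 7.93 in Doxy(+), so DR5 RNA was the more abundant throughout. CFLAR over CASP8 was 5.59 and 4.91 in Doxy(-) against 4.19 and 3.85 in Doxy(+), without overlap between the groups.

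The transcripts of TNFSF10 differed in how far they were apart between the groups. TNFSF10-201, which encodes the full-length ligand, was at 325.3 and 324.5 TPM in Doxy(-) against 118.7 and 120.5 in Doxy(+), a log2 ratio of -1.44. TNFSF10-202, which lacks the 148 bases shown above, was at 63.9 and 68.4 TPM in Doxy(-) against 33.1 and 37.4 in Doxy(+), a log2 ratio of -0.91. Both were lower in both Doxy(+) libraries. The share of TNFSF10-202 in the TPM of its gene was 15.7% and 16.59% in Doxy(-) against 20.5% and 22.7% in Doxy(+), without overlap, and by counts it was 14.1% and 19.2% in the group means. That of TNFSF10-201 was 80.0% and 78.7% in Doxy(-) against 73.4% and 73.2% in Doxy(+). The shares rest on how the authors' quantifier divided reads that fit several transcripts, and the file's TNFSF10-201 is 1953 bases long against 1876 in GENCODE release 44.

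**Figure D3:**
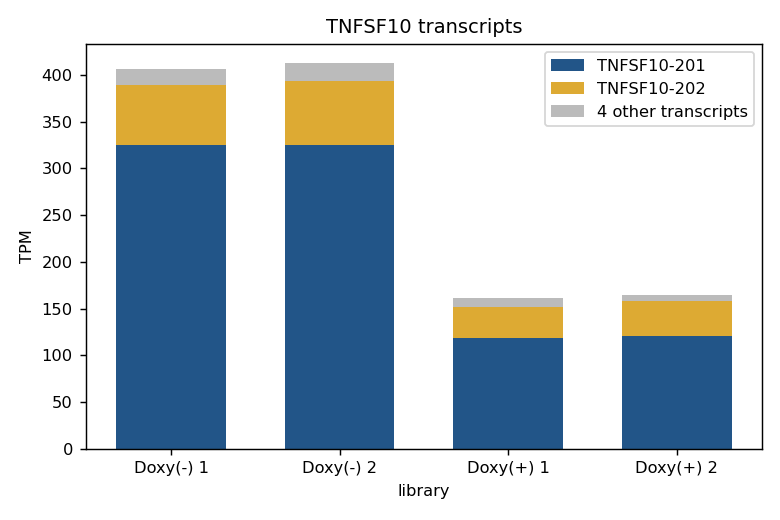
Stacked TPM of TNFSF10-201 (blue), TNFSF10-202 (yellow) and the 4 other transcripts of the gene (grey) in each library. TNFSF10-201 is at 325.3 and 324.5 TPM in Doxy(-) against 118.7 and 120.5 in Doxy(+), and the total follows it.

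The products of CFLAR are of different length, the long form holding the caspase-like part and the short form lacking it. Over the 4 libraries the long form (480 residues) held 15.55% to 20.79% of the gene's TPM. The short form (221 residues) held 14.25% to 19.41%, and the rest was in other transcripts of the gene. The transcripts of the 480-residue form summed to 28.6 and 31.6 TPM in Doxy(-) against 28.7 and 32.1 in Doxy(+). Those of the 221-residue form summed to 28.6 and 25.7 TPM in Doxy(-) against 28.9 and 30.0 in Doxy(+). The groups overlapped for the long form. For the short form both Doxy(+) libraries were higher in TPM, by little between the nearest libraries (28.9 against 28.6). Its estimated counts were 289.4 and 298.0 in Doxy(-) against 282.9 and 307.3 in Doxy(+). These counts are not scaled to library size, so they do not compare levels. The transcripts of TNFRSF10B with 440 and 411 residues both encode DR5, the shorter without a stretch of the extracellular stalk. TNFRSF10B-201, the 440-residue form, held 40.7% and 36.1% of the gene's TPM in Doxy(-) against 42.7% and 40.5% in Doxy(+). TNFRSF10B-202, the 411-residue form, held 28.5% and 28.2% in Doxy(-) against 27.3% and 29.8% in Doxy(+), again with overlap.

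The other genes of the pathway were taken as 114 genes in 9 lists. Of these 89 were tested, 17 rose and 16 fell at an adjusted p under 0.05 (edgeR's quasi-likelihood test with Benjamini-Hochberg adjustment over all 13569 genes). That is 37.1% of those tested, with a median log2 fold change of -0.01, beside 19.3% and a median of 0.00 over all genes tested. The lists were chosen with earlier results of these data known and were not matched to all genes for level. Nothing is therefore read from the difference in shares. The genes past the log2 limit of 1 as well were EDA, TNFRSF14 and DDIT3, all higher. Of the 33 genes past the test, 10 passed it under each of the 15 other settings, 7 of them higher (among them TNFSF9, TNFRSF14, LTBR, PEA15, HTRA2 and DDIT3) and 3 lower (TNFRSF19, BIRC5 and IRF1).

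Of 17 other ligands of the family, 5 were tested, 2 rose and none fell. TNFSF9, the ligand of 4-1BB, rose from 101.8 and 94.0 CPM to 129.4 and 133.5 (log2 fold change 0.43 ± 0.054, adjusted p = 0.0039 in edgeR's test). EDA, the ectodysplasin ligand, was called at 0.155 and 0.136 CPM in Doxy(-) against 0.855 and 0.819 in Doxy(+) (2.45 ± 0.58, edgeR adjusted p = 0.033), a handful of reads, and lost the call with either replicate block and when any single library was left out, with edgeR adjusted p up to 0.17. FASLG, the ligand of FAS, had between 1 and 3 counts in each library and was not tested, and neither was TNF.

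Of 23 other receptors, 16 were tested, with 2 higher and 2 lower. TNFRSF14 (HVEM, the receptor of LIGHT) rose from 27.5 and 23.5 CPM to 106.0 and 108.1, with a log2 fold change of 2.07 ± 0.079 (edgeR adjusted p = 8.0e-05). TNFRSF19 (TROY) fell from 58.6 and 53.8 CPM to 32.8 and 30.2, with a log2 fold change of -0.84 ± 0.074 (edgeR adjusted p = 0.0011). The groups of both genes lay far apart against the spread of their libraries.

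Of 13 receptor complex partners, all tested, 4 rose and 3 fell. PTPN13, a phosphatase that binds FAS, fell from 217.2 and 218.8 CPM to 158.0 and 159.2 (-0.46 ± 0.034, edgeR adjusted p = 0.00066). PEA15, a death effector domain protein that can bind FADD and caspase-8, rose from 534.0 and 547.6 CPM to 643.7 and 647.8 (0.26 ± 0.029, edgeR adjusted p = 0.0028). CASP10, the other initiator caspase of these receptors, which lies between CFLAR and CASP8, was among the 4 that rose, at 20.0 and 20.4 CPM in Doxy(-) against 25.6 and 25.4 in Doxy(+), but lost the call in 10 of the 15 alternatives, among them DESeq2 and each library left out. PEA15 kept its call in all 15, and PTPN13 lost it with both limma settings. Of 15 downstream caspases and mitochondrial genes, 2 rose and 1 fell, the leading ones being APAF1, the apoptosome scaffold, with a log2 fold change of -0.23 ± 0.049 (edgeR adjusted p = 0.022), and BAK1, a pore-forming protein, with 0.25 ± 0.062 (edgeR adjusted p = 0.038). APAF1 lost the call in 6 of the 15 alternatives, among them each library left out but Doxy(-) 1, and BAK1 in 10, among them DESeq2 and each library left out.

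Of 9 tested genes of the IAP (inhibitor of apoptosis) proteins and their antagonists, 2 rose and 2 fell. BIRC5 (survivin), which also serves in cell division, fell from 116.9 and 117.9 CPM to 86.5 and 80.5, a log2 fold change of -0.49 ± 0.052 (edgeR adjusted p = 0.0021). HTRA2, a mitochondrial protease that antagonises IAPs, rose from 32.6 and 29.0 CPM to 46.0 and 45.3, 0.57 ± 0.075 (edgeR adjusted p = 0.0045), and its exons overlap AUP1 and LOXL3 on the other strand. The necroptosis list had 3 genes tested and none past the test, with a log2 fold change of -0.21 for TICAM1 (edgeR adjusted p = 0.087) and -0.20 for MLKL (edgeR adjusted p = 0.17), and RIPK3 was at 0 counts in the 4 libraries. Among 12 ubiquitin and kinase regulators, 1 rose and 3 fell, led by TNIP1, which binds A20, at -0.36 ± 0.053 (edgeR adjusted p = 0.0068), and RNF31, a subunit of the linear ubiquitin ligase, at -0.63 ± 0.14 (edgeR adjusted p = 0.025), whose exons overlap PSME2 on the other strand. TNIP1 lost the call in 3 alternatives and RNF31 in 4, both without Doxy(+) 1.

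Of 12 tested transcription factors known to act on TRAIL or its receptors, 3 rose and 4 fell. DDIT3 (CHOP), a stress factor that acts on the TNFRSF10B promoter, rose from 31.7 and 26.6 CPM to 72.5 and 71.9, a log2 fold change of 1.31 ± 0.085 (edgeR adjusted p = 0.00042), and its exons overlap MARS1 and MBD6. IRF1, an interferon regulatory factor that acts on the TNFSF10 promoter, fell from 49.9 and 46.3 CPM to 31.9 and 30.6, -0.62 ± 0.068 (edgeR adjusted p = 0.0023). JUN, RELA and ATF4 fell as well, with log2 fold changes of -0.34, -0.24 and -0.12 (edgeR adjusted p = 0.0045, 0.032 and 0.035). JUN lost the call in 2 of the 15 alternatives, RELA in 6 and ATF4 in 7. FOXO3, of the same list, rose with a log2 fold change of 0.19 ± 0.042 (edgeR adjusted p = 0.027) but lost the call in 6 of the 15 alternatives. IRF1, JUN, RELA, ATF4 and FOXO3 were picked after their values were seen, and their part in the level of TNFSF10 was not tested. Of the enzymes of receptor glycosylation and shedding, 4 were tested. ADAM17 was higher at 0.32 ± 0.045 (edgeR adjusted p = 0.0058) and ADAM10 lower at -0.25 ± 0.035 (edgeR adjusted p = 0.0052). Without Doxy(+) 1 both calls were lost, and ADAM10 also lost its call with both limma settings and with length-scaled counts.

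**Figure D4:**
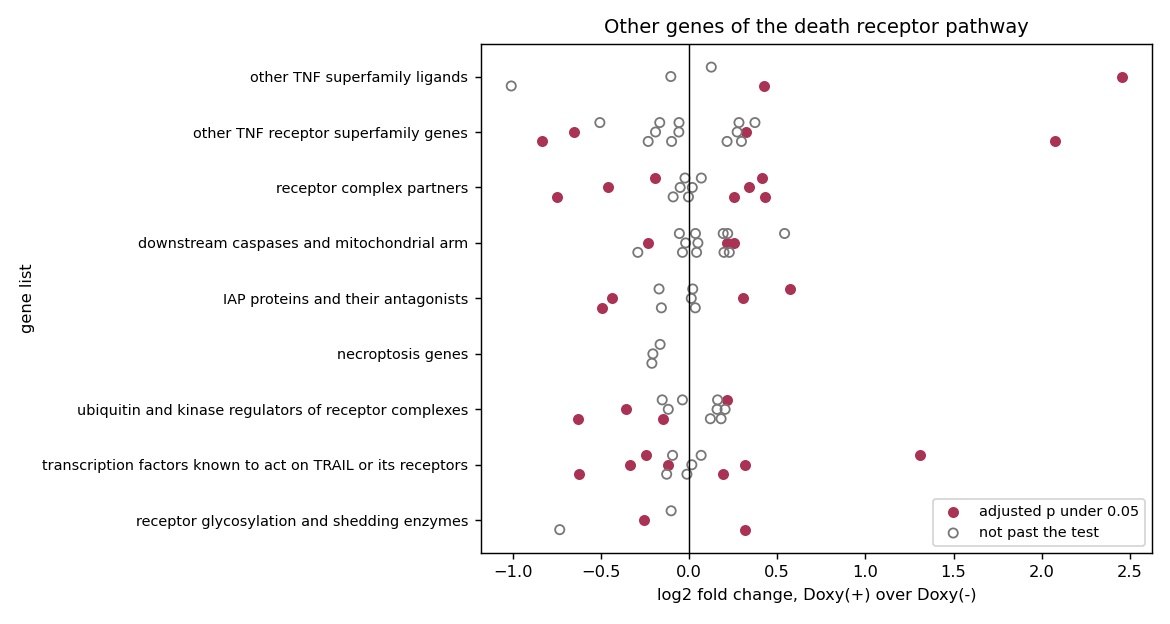
Log2 fold change of Doxy(+) over Doxy(-) for the 89 tested pathway genes, 1 point per gene and 1 row per list, filled where the adjusted p was under 0.05. The 17 filled points to the right and 16 to the left are spread over the lists, and TNFRSF14 at 2.07, EDA at 2.45 and DDIT3 at 1.31 lie farthest to the right.

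Position in the genome was not used to choose the genes. Of 45 tested genes that start within 500 kb of the start of one of the 10 genes, 7 rose and 7 fell (31.1%), none past the log2 limit of 1, beside 19.3% of all genes tested. Beside TNFSF10, ECT2, a regulator of cytokinesis, fell with a log2 fold change of -0.57 (edgeR adjusted p = 0.00079). FNDC3B at -0.11 (edgeR adjusted p = 0.13) and NCEH1 at -0.40 (edgeR adjusted p = 0.39) did not pass the test. The 4 TRAIL receptor genes of chromosome 8 lie close together, and their log2 fold changes were between -0.51 and -0.09.

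The tested genes whose pattern over the 4 libraries was most like that of TNFSF10 were found by the Euclidean distance between centred log2 CPM values, over 9609 genes. Among the nearest were CXCL8 at a distance of 0.061 (log2 fold change -1.44), HSPA12A at 0.12 (-1.39), VCAM1 at 0.13 (-1.47) and SLCO2A1 at 0.15 (-1.54). CXCL8 was at 1040 and 1030 CPM in Doxy(-) against 381.9 and 382.3 in Doxy(+). VCAM1, a leukocyte adhesion molecule, was at 19.5 and 19.6 CPM in Doxy(-) against 6.52 and 7.60 in Doxy(+).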

How the data were processed

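Polyadenylated RNA of 4 libraries was sequenced. The study's methods name Trim Galore 0.6.6, cutadapt 2.5, STAR 2.7.9a on hg38 and RSEM, but the files have the columns that kallisto writes, so how the deposited values were made is uncertain, and whether counting used the strand is not given in the sources used here. The files deposited by the authors hold an estimated count and a TPM for each of 180253 Ensembl transcripts. The deposited expected counts are not normalized, and the deposited TPM values are scaled by the authors' quantifier for length and depth. Effective lengths were read for the length-scaled alternative only.

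Transcripts were joined to GENCODE release 44, which matched 150691 (83.6%) to 34080 genes. Unmatched identifiers, with 9.66% to 9.89% of the count of a library, stayed out of library sizes. Counts were summed per gene symbol, rounded and fitted with edgeR 4.0.16 (glmQLFit, glmQLFTest) in R 4.3.3 after TMM scaling and filterByExpr, with p-values adjusted by the Benjamini-Hochberg method over 13569 genes. The study's limits were used, an adjusted p below 0.05 and an absolute log2 fold change above 1. CPM values are scaled to the TMM-adjusted total, 3 counts being 0.204 to 0.233 CPM, and the SE follows from the F statistic. The common biological coefficient of variation was 6.53%. The labels do not say whether a number marks a culture, so p-values measure only the spread between these libraries, which may be technical. Alternatives were RLE size factors, other low-count filters, unrounded counts, DESeq2 1.42.0, limma 3.58.1 on log2(TPM + 1) and log2(TPM + 0.1), added unmatched copies, length-scaled counts, the replicate block, a crossed block and each library left out. The 10 genes and the lists were chosen with earlier results of these data known. Named are all 10, TFE3 and PRCC, in each list the 2 genes with the smallest p and those past both limits, the 5 genes most like TNFSF10, and the neighbours past both limits, of which there were none. Outside that rule, chosen after their values were seen, are CASP10, IRF1, JUN, RELA, ATF4, FOXO3, LTBR, FASLG, TNF, RIPK3 and the neighbours of TNFSF10. The results of 2 genes that this rule names are not reported here. Promoters came from RefSeq.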

Additional observations from a re-analysis of the deposited data

How the results depend on the processing

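Under the 15 alternatives TNFSF10 stayed the only one of the 10 genes past both limits, with a log2 fold change between -1.42 and -1.32. Those of TNFRSF10A (-0.60 to -0.37), TNFRSF10B, TNFRSF10D, CASP8 and CFLAR kept their sign, while FAS (-0.18 to 0.25), TNFRSF10C (-0.65 to 0.50) and FADD (-0.10 to 0.10) did not, in 5, 2 and 4 alternatives. At the adjusted p alone TNFRSF10D was added with the replicate block and without Doxy(-) 2. Of the pathway genes, 17 were higher and 16 lower. These counts were 8 and 4 with limma on log2(TPM + 1), 8 and 4 with log2(TPM + 0.1), 9 and 9 with length-scaled counts, and 8 to 12 and 7 to 15 with 1 library left out, where fewer samples were fitted. Otherwise the cause was not tested. The neighbours past the test were 14 of 45 within 500 kb (31.1%). They were 5 of 22 within 250 kb (22.7%) and 24 of 75 within 1000 kb (32.0%), beside 19.3% of all genes tested.

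Deviations of same-numbered libraries from their group means had a correlation of r = -0.222 over 9610 genes. This weak value does not settle whether the numbers pair the libraries, and the main fit did not pair them. With the replicate block, 14 pathway genes were higher and 15 lower, and 272 genes in all passed both limits against 268 without it. The crossed pairing, added after seeing the data, gave 11, 13 and 245. An SD from 2 libraries is imprecise, and TNFRSF11B and TNFRSF10C are limited by depth.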
